A study of Mus musculus with 10 samples.

Results

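Nerve terminals release transmitter from synaptic vesicles, and 44 genes for the proteins of that release machinery were followed in the mouse hippocampus after subarachnoid hemorrhage (SAH), a bleed into the fluid space around the brain. The genes were chosen by name, as genes of the synaptic vesicle, of the SNARE fusion complex and its regulators, and of the active zone. All 44 were among the 24391 gene names of the count tables, and all 44 had enough counts to be tested. Total RNA without ribosomal RNA was sequenced from the whole hippocampus of both sides, with 1 library for each of 10 male C56BL/6J mice (the spelling of the study's methods), 10 to 14 weeks old, with no drug treatment recorded besides isoflurane for the surgery. SAH mice (n = 4, numbered 1 to 4) had the circle of Willis perforated on 1 side, Sham mice (n = 3, 5 to 7) had the surgery without perforation, Naive mice (n = 3, 8 to 10) had no surgery, and the tissue was taken on day 4. Sham and Naive mice together formed the control group (n = 6), and only SAH mice whose blood flow over the cortex dropped steeply at the perforation had been kept by the study, which limits the SAH group to mice with a marked drop.

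A synaptic vesicle is filled with transmitter by a transporter, tethered in the terminal by synapsins, and docked at the active zone by RIM, Munc13, bassoon and piccolo. Fusion is driven by the SNARE proteins, in which synaptobrevin of the vesicle zips together with syntaxin and SNAP-25 of the plasma membrane. Complexin holds the assembled complex ready, synaptotagmin fires it when calcium enters, NSF with its SNAP adaptors takes the used complex apart, and dynamin pinches off the membrane for the next vesicle. The hippocampus is rich in glutamatergic terminals, and most of these carry the vesicular glutamate transporter VGLUT1, encoded by Slc17a7.

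Total counts per mouse ranged from 19743388 to 27254655. The markers checked had counts in every group, with none at 0 in all mice. The summed level of 13 pan-neuronal markers was 5991 to 6240 CPM (TMM-normalized counts relative to library size) in SAH, 6009 to 6692 in Sham and 6258 to 6317 in Naive, so SAH overlapped with Sham and not with Naive, and 8 markers of pyramidal cells summed to 6206 to 7315 CPM over all mice. All 10 oligodendrocyte markers were lower in SAH against control, and their sums did not overlap, at 4999 to 6364 CPM in SAH, 7348 to 10150 in Sham and 8416 to 9101 in Naive. The 8 choroid plexus markers, of an epithelium next to the hippocampus, summed to 1234, 871 and 836 CPM in SAH mice 3 and 4 and Sham mouse 7, and to 47.5 to 219 CPM in the other 7 mice, with 0 of 8 called. Microglial markers were called higher for 5 of 8, endothelial markers for 3 of 8, fibroblast and meningeal markers for 6 of 8, and astrocyte markers for 1 of 8, Gfap at 1.00 on the log2 scale. Of 10 interneuron markers Sst was called lower at -0.27, and of 8 dentate granule cell markers C1ql2 was called higher and Ablim3 lower, with sums of 601 and 554 CPM in SAH mice 3 and 4 and 374 to 493 CPM in the other mice. The part of these other cells in the results below was not tested. Fits without the 3 mice rich in choroid plexus markers are given, but they cannot single out 1 cell type. SAH mice 3 and 4 also had the highest endothelial sums (211 and 265 CPM) and the lowest oligodendrocyte sums, and few SAH mice remained.

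In SAH against control, 4 of the 44 presynaptic genes were called lower and none higher, by edgeR's quasi-likelihood test with a call set at p under 0.10 after Benjamini-Hochberg adjustment. The 4 were Syn1 (synapsin I, which tethers vesicles), Cplx1 (complexin 1), Dnm1 (dynamin 1) and Vamp2 (synaptobrevin 2, the vesicle SNARE), of which Syn1 fell by 14.4%, Cplx1 fell by 9.67%, Dnm1 fell by 7.36% and Vamp2 fell by 7.69%. This was 9.09% of the presynaptic genes, where 1.54% of the 14993 genes tested were called lower and 3.13% higher. All 4 SAH mice lay below all 6 control mice for 3 of the 44, Vamp2, Cplx1 and Dnm1, and above them for none, against 2.37% and 2.83% of all genes. DESeq2 called the same 4 lower and none higher. In a bulk sample, fewer neurons and less RNA per neuron cannot be told apart, and the number of terminals was not measured.

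Most of the other genes lay close to the control level. Of the 44 genes, 29 had a log2 fold change below 0 and 15 above, with a median of -0.05 against -0.0024 over all genes, and a range from -0.25 for Cplx3 to 0.20 for Syn3. At an unadjusted p under 0.05 there were 11 of 44, 8 of them lower, where 17.0% of all genes passed that mark. For 25 of the 40 genes not called, the 95% interval of the log2 fold change lay within 0.25 of 0, and for 37 it lay within 0.5, so that larger changes than these lay outside the interval. The other 3, Cplx3, Rims3 and Unc13c, were measured less closely. With 1 mouse left out, the log2 fold change moved by over 1.5 times or changed sign for 34 of the 40 genes not called, and for 0 of the 4 called. This measure is relative to a gene's own value, which was near 0 for many genes not called. The 4 had been picked by their calls on the same mice, so nothing is read from the contrast. The median log2 level of the 44 genes relative to the control mean ran from -0.06 in SAH mouse 3 to -0.0078 in SAH mouse 1, and from -0.08 in Sham mouse 7 to 0.05 in Naive mouse 9, so on the whole set the groups overlapped.

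**Figure D1:**
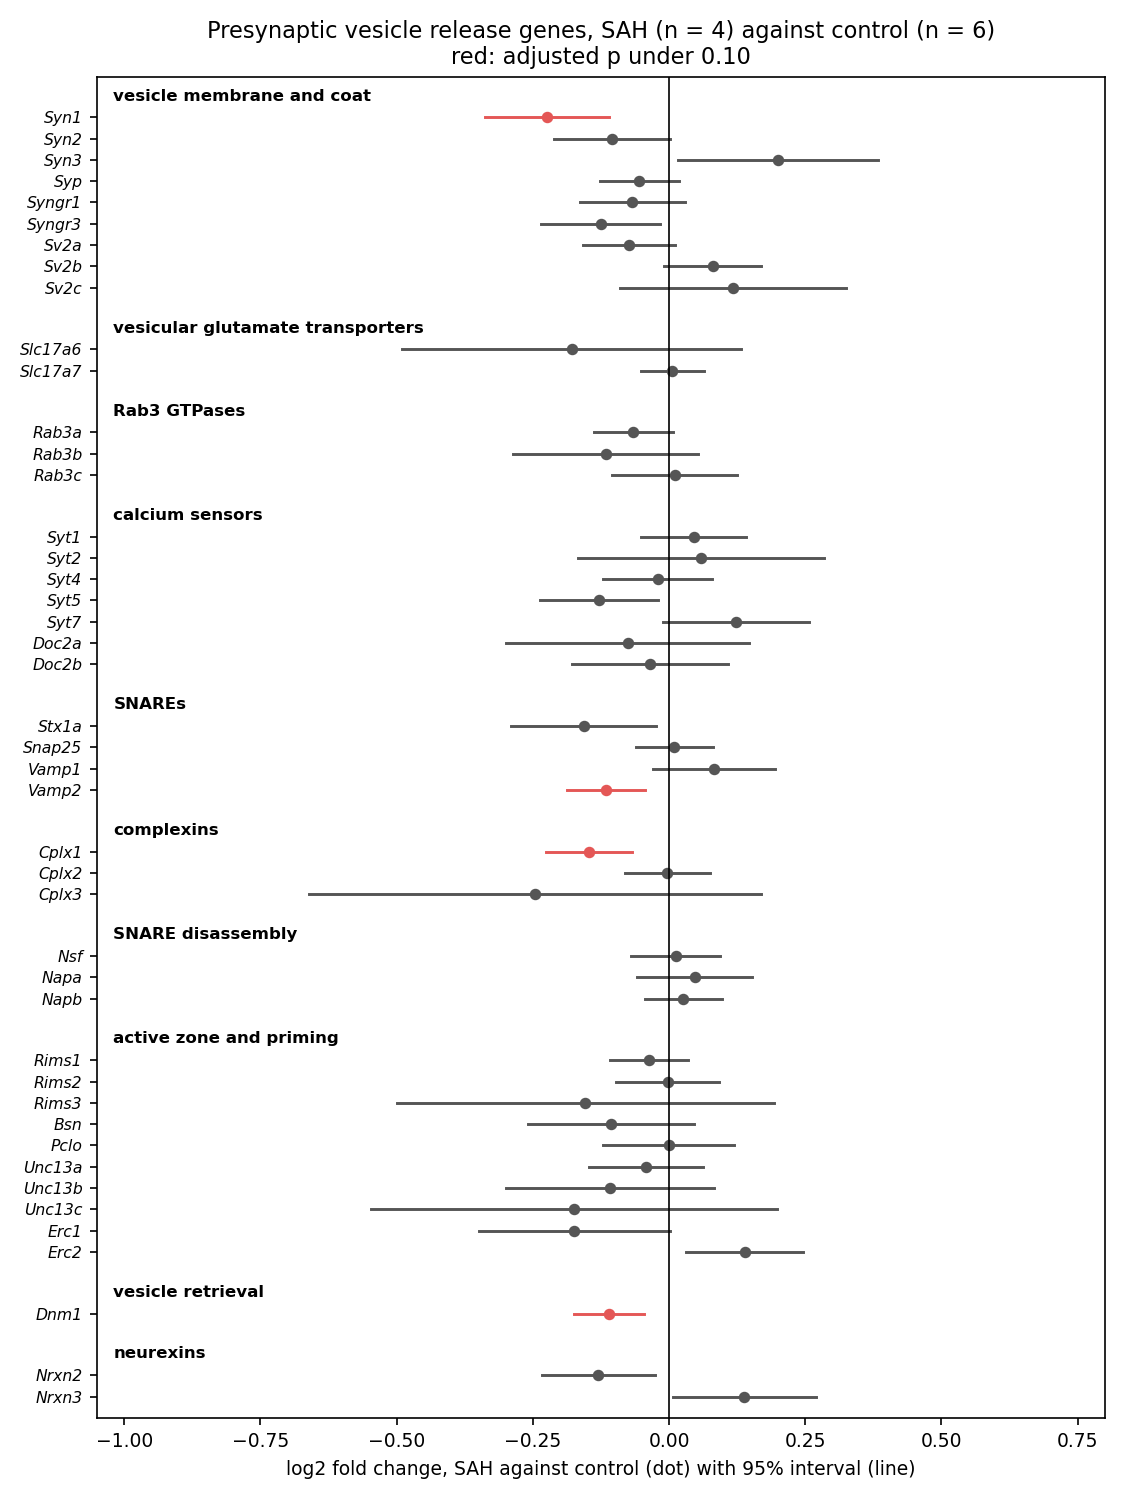
Log2 fold change in SAH (n = 4) against control (n = 6) for each of the 44 presynaptic genes, grouped by role, with the 95% interval as a line and genes with an adjusted p under 0.10 in red. The 4 red genes, Syn1, Vamp2, Cplx1 and Dnm1, all lie left of 0, and the widest intervals belong to genes of low level such as Cplx3.

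The count of 4 depended on single mice. It was 0 without SAH mouse 4 and 2 without SAH mouse 3, 2 without Naive mouse 8, Sham mouse 5 or Sham mouse 6, and 1 without Naive mouse 9 or Naive mouse 10. Without SAH mouse 1 it was 6, with Syngr3 and Syt5 added, and without SAH mouse 2 it was 5 lower, with Nrxn2 added, and 2 higher, Syn3 and Erc2. Without the 3 mice rich in choroid plexus markers (SAH 3, SAH 4 and Sham 7), a setting added after the data were seen, none was called among 2 SAH and 5 control mice. Syn1, Cplx1, Vamp2 and Dnm1 were the 4 genes under an unadjusted p of 0.05 in that fit. They had been picked on data that include these mice, so this is no separate evidence for them.

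Among the 9 genes of the vesicle membrane and coat, only Syn1 was called, and it had the lowest log2 fold change. Syn1 (mm9 chrX:20437637-20498044, minus strand) was at 632, 606, 522 and 548 CPM in SAH mice 1 to 4, at 679.6, 693 and 629 CPM in Sham mice 5 to 7, and at 659, 712 and 671 CPM in Naive mice 8 to 10. SAH mice 3 and 4 were lowest, and Sham mouse 7 was the only control mouse that any SAH mouse exceeded. The means were 577 ± 50.9 CPM (SD, n = 4) and 674 ± 28.7 CPM (SD, n = 6), which gives a log2 fold change of -0.22 ± 0.053 (SE; adjusted p = 0.0422, edgeR). Leaving out SAH mouse 4 gave -0.20 (adjusted p = 0.139), and without the 3 mice rich in choroid plexus markers it was -0.14 (adjusted p = 0.166, edgeR). Its exons share 11 bases with Araf on the other strand, which the stranded counting keeps apart.

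The other synapsins were not called. Syn2, the second abundant synapsin, had a log2 fold change of -0.10 (95% interval -0.21 to 0.0015), which was -0.15 without SAH mouse 1, -0.06 without SAH mouse 3 and -0.02 without the 3 mice rich in choroid plexus markers. Syn3, a synapsin of developing neurons and low in these libraries, was at 51.9, 45.6, 55.2 and 62.2 CPM in SAH, 42.1, 48.9 and 42.3 CPM in Sham, and 44.3, 50.8 and 52.4 CPM in Naive. SAH mice 3 and 4 were the 2 highest, SAH mouse 2 lay among the controls, and the log2 fold change of 0.20 ± 0.086 (SE) was the highest of the 44 without being called (adjusted p = 0.251, edgeR). It was 0.12 without SAH mouse 4, and 0.03 without the 3 mice rich in choroid plexus markers, where Syn3 no longer had the highest value.

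Of the other proteins of the vesicle membrane none was called. Syp encodes synaptophysin, the standard marker of synaptic vesicles, and was at 1569.8, 1583, 1569.9 and 1479.8 CPM in SAH, 1694, 1639.8 and 1542 CPM in Sham, and 1566, 1631 and 1589.9 CPM in Naive. SAH mouse 4 stood below all others, the other 3 SAH mice lay within the control range, and the log2 fold change was -0.05 (adjusted p = 0.437, edgeR). The synaptogyrins, related membrane proteins, had values of -0.07 for Syngr1 and -0.13 for Syngr3 (adjusted p = 0.224, edgeR), the latter at -0.04 without the 3 mice rich in choroid plexus markers. Among the SV2 glycoproteins, which are found on synaptic vesicles, Sv2a had -0.07, Sv2b 0.08 and Sv2c 0.12, none of them called.

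The vesicle SNARE Vamp2 (mm9 chr11:68902030-68905883, plus strand) was at 1088, 1087, 1049.7 and 1014 CPM in SAH, 1179, 1168 and 1106 CPM in Sham, and 1107, 1181 and 1148 CPM in Naive. Every SAH mouse lay below every control mouse, by a narrow gap between SAH mouse 1 and Sham mouse 7. The means were 1059.7 ± 35.0 and 1148 ± 34.1 CPM, a log2 fold change of -0.12 ± 0.033 (SE; adjusted p = 0.0911, edgeR). The call was lost in 13 of 19 other settings, among them the fits that left out SAH mouse 3 or 4, Sham mouse 5 or 6, or any 1 Naive mouse, with a highest adjusted p of 0.219 in these fits, with SAH mouse 4 left out. With 1 mouse left out the log2 fold change stayed between -0.13 and -0.10, and without the 3 mice rich in choroid plexus markers it was -0.09 (adjusted p = 0.482, edgeR). Vamp1, the synaptobrevin of motor and some fast terminals, was not called, at 0.08 on the log2 scale.

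The plasma membrane SNAREs were not called. Stx1a, syntaxin 1A, was at 104, 102, 84.6 and 94.4 CPM in SAH, 115, 102 and 97.8 CPM in Sham, and 112, 108 and 111 CPM in Naive. The SAH mice reached into the Sham range but not into the Naive range, and the log2 fold change was -0.16 ± 0.062 (SE; adjusted p = 0.218, edgeR), with -0.10 when SAH mouse 3 and -0.08 when the 3 mice rich in choroid plexus markers were left out. Snap25, which supplies helices to the fusion complex, was at 2564, 2449, 2589 and 2545 CPM in SAH, 2432, 2558 and 2552 CPM in Sham, and 2375, 2598 and 2604 CPM in Naive. The 3 groups overlapped, and the log2 fold change was 0.0098, with a 95% interval from -0.06 to 0.08.

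Of the 3 complexins, which clamp the assembled SNARE complex, only Cplx1 was called. Cplx1 (mm9 chr5:108947573-108979046, minus strand), the complexin of many inhibitory and fast synapses, was at 633, 652, 637 and 602 CPM in SAH, 742, 694 and 682 CPM in Sham, and 664, 707 and 701 CPM in Naive. All SAH mice lay below all control mice, with SAH mouse 2 and Naive mouse 8 nearest to each other. The log2 fold change was -0.15 ± 0.037 (SE; adjusted p = 0.0534, edgeR), and it was -0.12 (adjusted p = 0.162, edgeR) without SAH mouse 4, -0.14 (adjusted p = 0.107) without Naive mouse 9 and -0.15 (adjusted p = 0.115) without Naive mouse 10. Without the 3 mice rich in choroid plexus markers it was -0.12 (adjusted p = 0.287, edgeR). Cplx2, the more abundant complexin of glutamatergic neurons, had a log2 fold change of -0.0029 with a 95% interval from -0.08 to 0.08. Cplx3, a complexin of retina and of few brain neurons, was at 7.88, 5.59, 6.67 and 5.48 CPM in SAH, 11.1, 5.88 and 5.11 CPM in Sham, and 7.33, 6.99 and 8.96 CPM in Naive, so that its -0.25 ± 0.19 (SE) rested on few counts and the groups overlapped throughout, with -0.10 when Sham mouse 5 was left out.

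Dynamin 1, the GTPase that cuts endocytosed vesicles from the membrane, was the only gene of vesicle retrieval in the set. Dnm1 (mm9 chr2:32163991-32208849, minus strand) was at 1332, 1302, 1272 and 1255 CPM in SAH, 1380.3, 1414 and 1347 CPM in Sham, and 1383, 1435 and 1398 CPM in Naive. No SAH mouse reached the lowest control mouse, Sham mouse 7. The means were 1290.2 ± 34.0 and 1393 ± 30.4 CPM, a log2 fold change of -0.11 ± 0.030 (SE; adjusted p = 0.0689, edgeR). With SAH mouse 3 or 4, Sham mouse 5 or 6, or any 1 Naive mouse left out it was not called, with adjusted p between 0.101 and 0.179 (edgeR), while the log2 fold change with any 1 mouse left out stayed between -0.13 and -0.10. It was -0.09 (adjusted p = 0.426, edgeR) without the 3 mice rich in choroid plexus markers. The genes that recycle the SNAREs had no value below 0: Nsf, the ATPase, had 0.012, Napa, alpha-SNAP, 0.05, and Napb, beta-SNAP, 0.03.

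**Figure D2:**
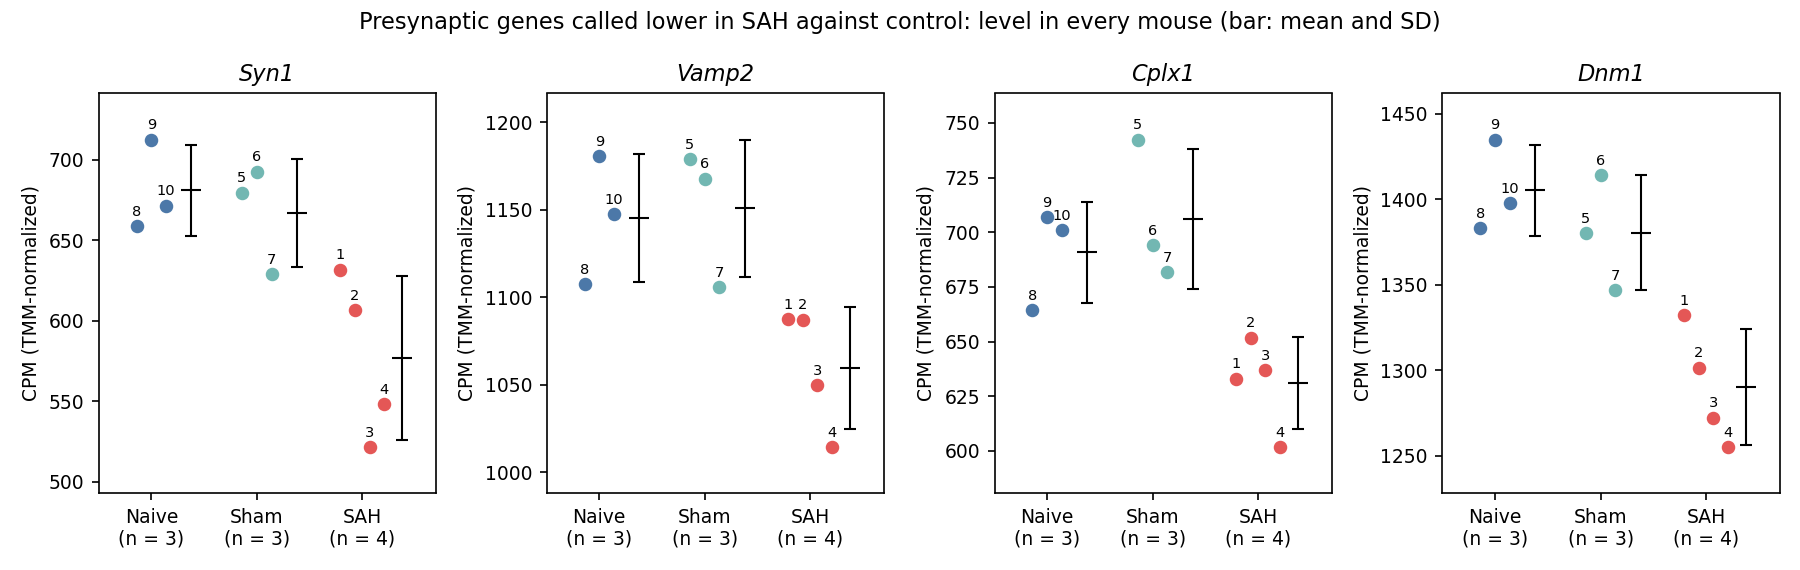
TMM-normalized CPM of Syn1, Vamp2, Cplx1 and Dnm1 in every Naive, Sham and SAH mouse, with the mouse numbers at the points and the mean and SD of each group as a bar; the vertical axes do not start at 0. The SAH mice sit lowest in each panel, and only for Syn1 does 1 SAH mouse (632 CPM) lie above a control mouse (629 CPM).

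The sequence just before the transcription start was available for 3 of the 4 genes called lower, and is shown because these genes shared a call in the same direction. It comes from RefSeq promoter windows on GRCm38.p6, a later build than the mm9 of the counts, and covers the 250 bases before the transcript start that the window is built on, 5′ to 3′ on the strand of the gene. For Dnm1 the outermost start of the gene in RefSeq lies inside the window. Capitals mark exact matches to any of 4 motifs searched on both strands: the cAMP response element TGACGTCA, the EGR site GCGTGGGCG, and the left and right parts TCAGCACC and GGACAGC of RE1, the element bound by the neuronal repressor REST. Syn1 is at chrX:20920919-20921168, Cplx1 at chr5:108550028-108550277 and Dnm1 at chr2:32353330-32353579, all on the minus strand.
Syn1: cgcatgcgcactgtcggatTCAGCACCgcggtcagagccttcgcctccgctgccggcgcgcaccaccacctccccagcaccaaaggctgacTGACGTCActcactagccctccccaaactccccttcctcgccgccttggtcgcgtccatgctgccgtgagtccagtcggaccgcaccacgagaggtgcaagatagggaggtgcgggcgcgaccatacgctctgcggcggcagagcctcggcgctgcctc
Cplx1: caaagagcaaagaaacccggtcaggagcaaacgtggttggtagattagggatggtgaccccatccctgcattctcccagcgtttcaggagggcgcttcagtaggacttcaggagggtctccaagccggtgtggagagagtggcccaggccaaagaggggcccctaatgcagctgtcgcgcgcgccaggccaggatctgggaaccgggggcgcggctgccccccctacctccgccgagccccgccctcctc
Dnm1: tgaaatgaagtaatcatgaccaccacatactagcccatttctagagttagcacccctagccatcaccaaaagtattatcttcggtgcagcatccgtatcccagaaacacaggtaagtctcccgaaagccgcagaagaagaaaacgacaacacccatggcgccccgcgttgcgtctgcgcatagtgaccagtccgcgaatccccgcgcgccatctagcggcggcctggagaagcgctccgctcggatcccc
Syn1 held the left RE1 part starting 231 bases before the start site and the cAMP response element starting 159 bases before it, which do not overlap, while the windows of Cplx1 and Dnm1 held none of the 4 motifs. The windows were 68.0%, 64.8% and 55.6% G and C. A window of 300 bases (250 before and 50 after the start) was available for 33 of the 44 genes, 43 windows in all. Besides Syn1, the cAMP response element was in the window of Napa and in 1.79% of all 32851 windows. The left RE1 part was also in Napa and Unc13a, against 1.65% of all windows, and the right part in Unc13a alone, against 6.56%. The EGR site was in Unc13a alone, against 0.612%. A match says only that these letters are present. The 11 genes without a window were Syn3, Syngr3, Syt4, Syt5, Syt7, Doc2a, Doc2b, Snap25, Vamp2, Rims2 and Nrxn2.

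None of the 7 calcium sensors was called. Syt1, the synaptotagmin that triggers synchronous release, was at 1968, 1936, 2259 and 2004 CPM in SAH, 2014, 1977 and 1862 CPM in Sham, and 1913, 2087 and 2019.6 CPM in Naive. SAH mouse 3 was highest and the other 3 lay within the control range, with a log2 fold change of 0.05 (95% interval -0.05 to 0.14). Syt2, its relative in fast hindbrain and interneuron terminals, had 0.06. Syt7, a slow sensor linked to asynchronous release, had 0.12, and ranged from 355 to 472 CPM in SAH against 359 to 376 CPM in control, the high end being SAH mouse 3. It was 0.04 without SAH mouse 3 and -0.0076 without the 3 mice rich in choroid plexus markers. Syt5 had -0.13 (adjusted p = 0.213, edgeR), with 2 of the 6 control mice below the highest SAH mouse, and had -0.09 without SAH mouse 4 and -0.03 without the 3 mice rich in choroid plexus markers. Syt4, which binds calcium poorly, had -0.02, and the DOC2 sensors of spontaneous release had -0.08 for Doc2a and -0.03 for Doc2b.

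The active zone and priming genes were not called either. Of the 10, 9 had a log2 fold change below 0, with a median of -0.07. Pclo and Rims2 are among these 9, with values close to 0 that changed sign in other settings. Unc13a encodes Munc13-1, the main priming factor of glutamatergic terminals, and was at 383, 399, 363 and 391 CPM in SAH, 364, 387 and 386 CPM in Sham, and 429, 423 and 385 CPM in Naive. Its 2 highest mice were Naive, the SAH and Sham mice overlapped, and the log2 fold change against control was -0.04 (95% interval -0.15 to 0.06). Its relatives Unc13b and Unc13c, a low-level form known from cerebellum, had -0.11 and -0.17. Unc13b ran from -0.18 without SAH mouse 4 to -0.0018 without SAH mouse 3, and Unc13c from -0.35 without SAH mouse 1 to -0.07 without Sham mouse 5. The RIM scaffold genes, which recruit calcium channels, had -0.04 for Rims1, -0.0024 for Rims2 and -0.15 for Rims3, the last with an interval from -0.50 to 0.19 and values from -0.32 without SAH mouse 1 to -0.06 without SAH mouse 3. The large scaffolds bassoon and piccolo had -0.11 for Bsn, and -0.05 without Naive mouse 9, and -0.00036 for Pclo.

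The 2 ELKS scaffold genes had values on opposite sides of 0. Erc2, the brain form, was at 271, 261, 309 and 278 CPM in SAH, 239, 255 and 256 CPM in Sham, and 249, 274 and 253 CPM in Naive. SAH mice 3 and 4 lay above all controls and Naive mouse 9 lay above SAH mice 1 and 2, with a log2 fold change of 0.14 ± 0.050 (SE; adjusted p = 0.173, edgeR). It was 0.09 without SAH mouse 3 and 0.07 without the 3 mice rich in choroid plexus markers. Erc1, the widely expressed form, had -0.17, with an interval that ended at 0.0012, and had -0.09 without SAH mouse 3 and -0.05 without the 3 mice rich in choroid plexus markers.

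The neurexins, presynaptic adhesion molecules that bind postsynaptic partners, also had values on both sides of 0. Nrxn3 was at 235, 246, 288 and 281 CPM in SAH, 227, 243 and 226 CPM in Sham, and 239, 264 and 232 CPM in Naive. SAH mice 3 and 4 were the 2 highest and SAH mice 1 and 2 lay within the control range, with a log2 fold change of 0.14 ± 0.061 (SE; adjusted p = 0.270, edgeR). It was 0.09 without SAH mouse 3 and 0.00083 without the 3 mice rich in choroid plexus markers. Nrxn2 had -0.13 ± 0.048 (SE; adjusted p = 0.186, edgeR), with 1 of 6 control mice, Sham mouse 7, below the highest SAH mouse. Its log2 fold change ran from -0.17 to -0.09 with 1 mouse left out, and reached -0.06 among all 19 other settings.

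The vesicular glutamate transporters were not called. Slc17a7 (VGLUT1) was at 1471, 1449.6, 1467 and 1422 CPM in SAH, 1447, 1492 and 1431 CPM in Sham, and 1440.2, 1440.03 and 1426 CPM in Naive. The 3 groups overlapped, and the log2 fold change was 0.0064 with a 95% interval from -0.05 to 0.06. With an offset for GC content in each library, Slc17a7 had 0.05 (adjusted p = 0.371, edgeR). Slc17a6 (VGLUT2), typical of subcortical inputs, was at 38.1, 24.3, 23.5 and 29.0 CPM in SAH, 35.1, 25.8 and 27.5 CPM in Sham, and 32.1, 32.8 and 41.6 CPM in Naive. SAH mouse 1 was among the highest and SAH mice 2 and 3 were the lowest, and the log2 fold change was -0.18 ± 0.14 (SE; adjusted p = 0.558, edgeR). It ran from -0.34 without SAH mouse 1 to -0.10 without Naive mouse 10. The Rab3 GTPases, which mark vesicles for docking, had -0.07 for Rab3a, -0.12 for Rab3b and 0.01 for Rab3c.

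The balance between relatives was compared within 14 families. In 4 of them, the synapsins, SV2 genes, complexins and neurexins, a gene had a share whose range in SAH did not overlap with that in control, and in the other 10 the ranges overlapped. No such count was made over other gene families, so nothing is read from its size. On the scale of CPM per kilobase of exon, Syn1 made up 57.2%, 57.2%, 56.8% and 56.9% of the 3 synapsins in SAH mice 1 to 4, and 58.4% to 60.4% in the 6 control mice. All 4 SAH mice lay close together and below every control mouse, although SAH mice 1 and 2 had the higher Syn1 levels. Sv2a made up 46.6% to 49.2% of the SV2 genes in SAH and 49.9% to 51.9% in control, with Sv2b at 49.6% to 51.8% and 47.0% to 48.8%. Cplx1 made up 40.4% to 42.7% of the complexins in SAH and 43.1% to 47.6% in control. Nrxn2 made up 57.7% to 64.558% of the 2 neurexins in SAH and 64.561% to 66.8% in control, nearly touching. The ranges of the share of Vamp2 in Vamp1 plus Vamp2 overlapped, at 89.7% to 91.8% and 91.7% to 92.3%. Shares within a family are ratios of the counts already described, and they were not tested. In 11 of the 14 families the gene that lost the most share in SAH had more G and C in its exons than the gene that gained the most, among them all 4 with ranges apart, such as Syn1 at 57.5% against Syn2 at 51.3%. The SNAP, VGLUT and Munc13 families went the other way. In some of the 11 the GC contents hardly differed, as in the synaptobrevins (52.9% against 52.5%) and synaptogyrins (57.0% against 56.6%). In others the share moved little beside the spread between mice, as for Doc2a (-0.38 points, control SD 1.84). The count rests on the genes and mice already described and was not set against other families, so nothing is read from it.

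**Figure D3:**
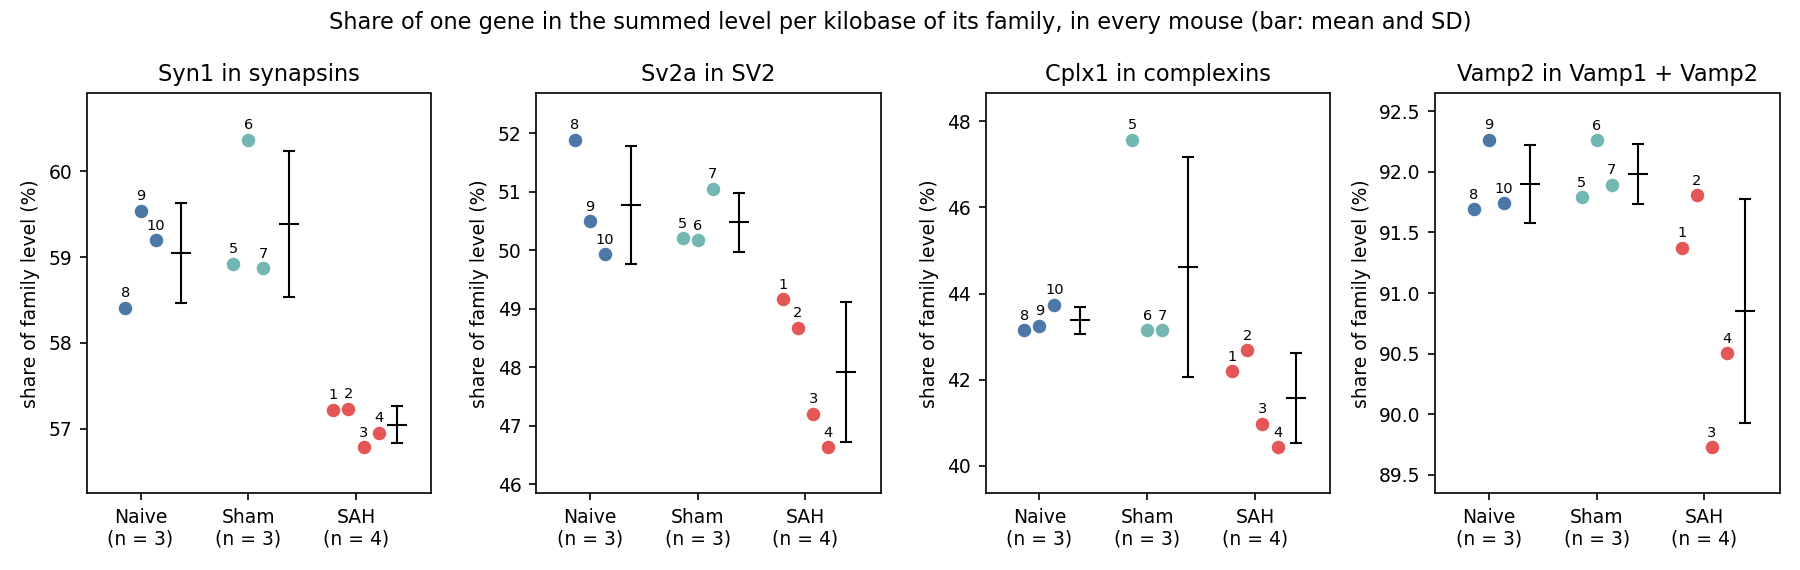
Share (%) of Syn1 in the synapsins, Sv2a in the SV2 genes, Cplx1 in the complexins and Vamp2 in Vamp1 plus Vamp2, from CPM per kilobase of exon, in every mouse, with mouse numbers at the points and the mean and SD as a bar; the vertical axes do not start at 0. The SAH mice lie below all control mice in the first 3 panels, and Syn1 takes 56.8% to 57.2% in SAH.

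The levels of the 44 genes spanned a wide range. Per kilobase of exon, Snap25 was highest in control at 1126 ± 42.1 CPM (SD, n = 6), followed by Syp at 649 ± 22.4, Vamp2 at 531 ± 15.8, Slc17a7 at 492 ± 8.13 and Syt1 at 411 ± 16.8. The first 4 did not overlap with their neighbours in the 6 control mice, whereas from Syt1 through Cplx2 and Rab3a to Nsf each gene overlapped with the next. Dnm1 at 337 ± 7.37 and Cplx1 at 319 ± 12.01 overlapped too, and Syn1 followed at 210 ± 8.93, apart from both neighbours. The 4 genes called lower thus all stood among the 11 highest. At the low end were Syn3 at 3.95 ± 0.379, Sv2c at 2.78 ± 0.259 and Cplx3 at 2.65 ± 0.761 CPM per kilobase. The presynaptic genes varied little between control mice, with a median coefficient of variation of 4.61% against 5.16% for the genes at or above the level of the lowest of them, from 1.599% for Syt7 to 28.8% for Cplx3.

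**Figure D4:**
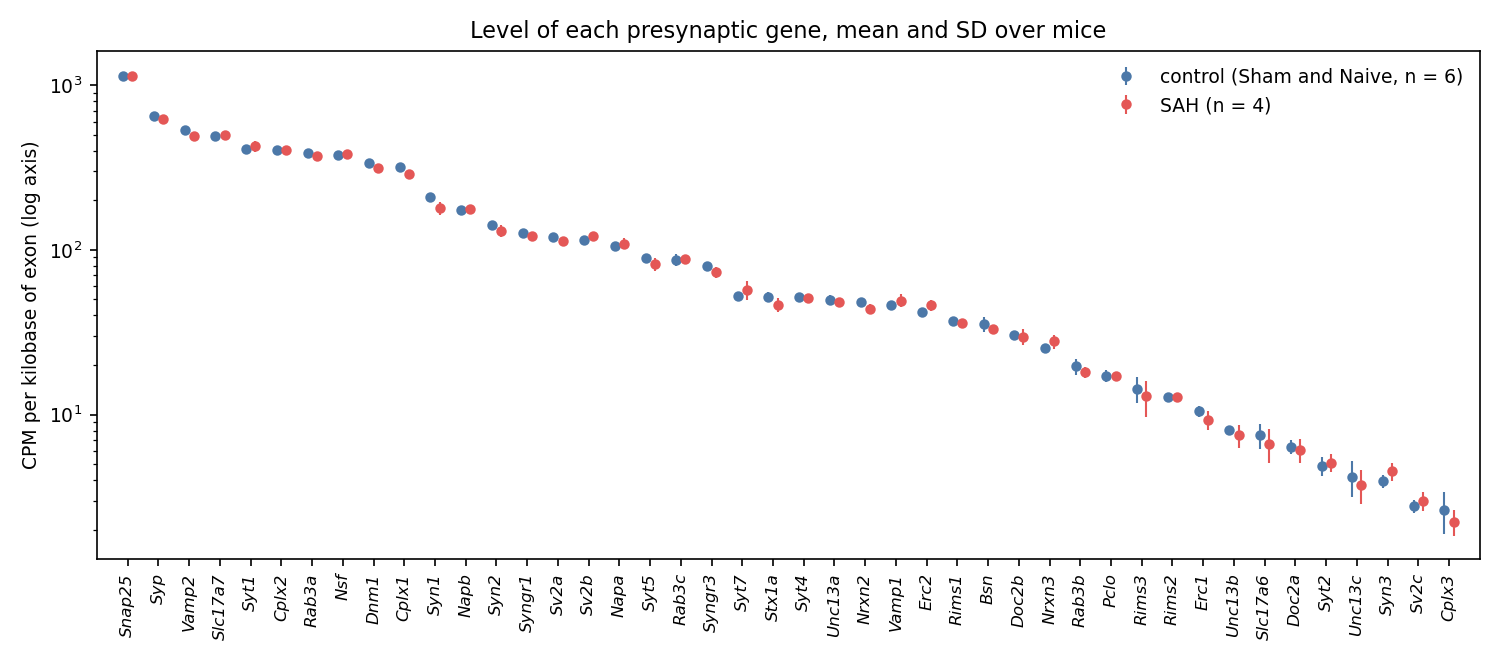
Level of each presynaptic gene in CPM per kilobase of exon (log axis), as mean and SD over the control mice (blue, n = 6) and the SAH mice (red, n = 4), ordered by the control mean. Snap25 is highest at 1126 in control and Cplx3 lowest at 2.65, and the groups lie close together beside this range.

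Against each control group alone, the 4 genes again had negative log2 fold changes and edgeR called only Syn1, against Naive. These comparisons share the SAH mice with each other and with the pooled comparison. In SAH against Sham, 0 of 44 were called in either direction by edgeR, where 0.192% of 15134 genes were called lower and 0.529% higher, with 7 at an unadjusted p under 0.05 (4 lower), a mark that 9.69% of all genes passed, and DESeq2 called 1, Cplx1. The log2 fold changes were -0.21 for Syn1 (adjusted p = 0.258), -0.16 for Cplx1 (adjusted p = 0.188), -0.12 for Vamp2 (adjusted p = 0.347) and -0.10 for Dnm1 (adjusted p = 0.388, edgeR).

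In SAH against Naive, edgeR called 1 of 44 lower, Syn1, and 0 higher, against 0.965% and 2.03% of all genes, and DESeq2 called 2 lower, Syn1 and Dnm1. The log2 fold changes were -0.24 for Syn1 (adjusted p = 0.0956), -0.13 for Cplx1 (adjusted p = 0.182), -0.11 for Vamp2 (adjusted p = 0.222) and -0.12 for Dnm1 (adjusted p = 0.126, edgeR). The Syn1 call against Naive was held only without SAH mouse 1 or SAH mouse 2 among the fits leaving out 1 mouse, with an adjusted p of 0.111 without Sham mouse 7 to 0.386 without Naive mouse 9 (edgeR). The adjusted p was also above 0.10 with SAH mouse 3 or 4, Sham mouse 5 or 6, or Naive mouse 8 or 10 left out. Without SAH mouse 2, Nrxn2 was called beside it, and without Naive mouse 10 Bsn was called in its place, at -0.28.

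Sham and Naive hippocampi, compared to see what the surgery alone did, differed in 0 of 44 genes by edgeR and by DESeq2, where 0.00661% of all genes were called, and 1 gene, Unc13a, had an unadjusted p under 0.05, at -0.12. Of the 44 log2 fold changes, 34 were below 0, with a median of -0.04, close in size to the -0.05 of SAH against control. Syn1 had -0.03 in this comparison, Vamp2 0.0070, Cplx1 0.03 and Dnm1 -0.03, and the 95% interval of Syn1 ran from -0.18 to 0.12.

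The genes with lower values in SAH tended to be rich in G and C. Across the 44 genes the log2 fold change in SAH against control went with the exon GC content at Pearson's r = -0.338 and Spearman's rho = -0.360 (n = 44 genes, which share the libraries and are not replicates), against -0.0257 and -0.0790 over 14987 genes. The 22 genes with the lower GC content had a median of 0.0047, 11 below 0 and 0 called, and the 22 with the higher content had -0.07, 18 below 0 and 4 called. The same relation of level to GC content differed between mice of 1 group, with rho from -0.424 in SAH mouse 4 to -0.03 in SAH mouse 2, and from -0.383 in Naive mouse 10 to 0.426 in Naive mouse 8. With an offset for GC content in each library, a setting added after the data were seen, Syn1 alone was called, at -0.19 (adjusted p = 0.0655), while Cplx1 had -0.12 (adjusted p = 0.112), Vamp2 -0.10 (adjusted p = 0.133) and Dnm1 -0.07 (adjusted p = 0.224, edgeR).

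**Figure D5:**
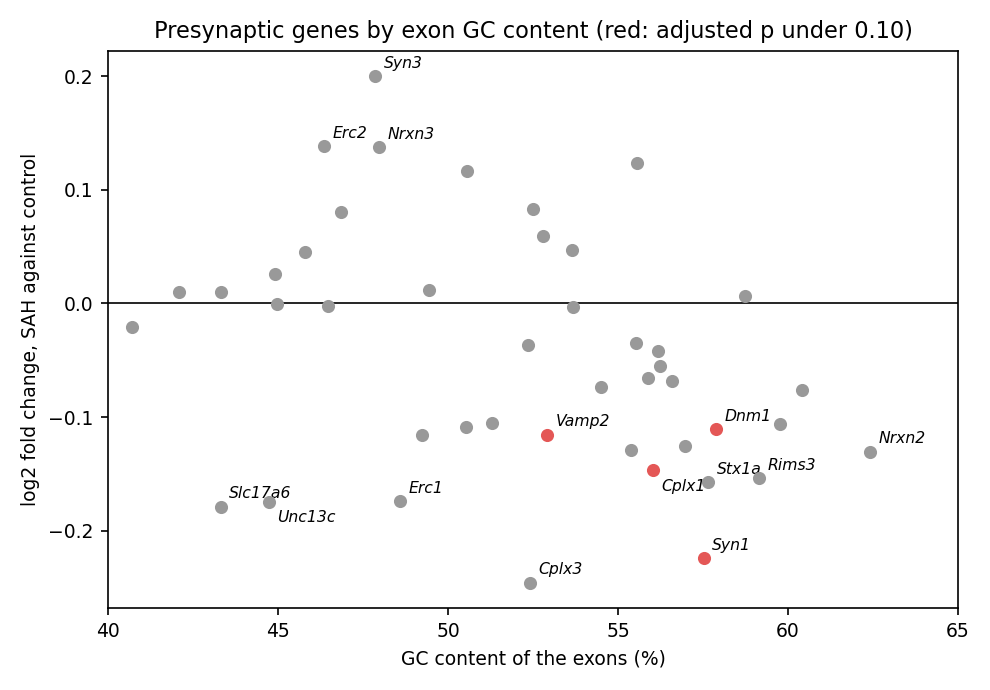
Log2 fold change in SAH against control of each presynaptic gene against the GC content (%) of its exons, with genes at an adjusted p under 0.10 in red and those beyond 0.13 in size named. The 4 red genes lie at 52.9% to 57.9%, and 18 of the 22 genes in the GC-richer part are below 0.

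A wider list of presynaptic genes showed no called change. Of 62 further genes for vesicle, active zone, calcium channel and endocytosis proteins, 60 were tested and 0 were called in SAH against control by edgeR, with 9 at an unadjusted p under 0.05, 8 of them lower, where 1.54% of all genes were called lower and 17.0% passed the unadjusted mark. DESeq2 called 2 lower, Syt11 and Sncb, and edgeR called 2 without SAH mouse 1 (Sncb and Apba1) and 3 without SAH mouse 2, among them Slc32a1 and Sncb. Syt11, a synaptotagmin without calcium binding, had -0.10 (adjusted p = 0.101, edgeR), and Sncb, beta-synuclein, had -0.17 (adjusted p = 0.122). Slc32a1, the vesicular transporter of inhibitory terminals, had -0.15 (adjusted p = 0.225, edgeR). The median of the 60 was -0.03 and 37 were below 0. Among the 13 pan-neuronal markers 11 were below 0, with a median of -0.06 and 1 called lower, Elavl3 at -0.26 (adjusted p = 0.0736, edgeR). The median was -0.01 for the 8 pyramidal markers and 0.13 for the 8 dentate granule cell markers, of which 2 were below 0.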

How the data were processed

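Counts of read pairs per gene were deposited for each of the 10 libraries. According to the methods, the authors aligned the pairs with STAR (default settings, mm9 genome), and pairs that fitted several places or genes were left out. Per the file headers, counting used featureCounts 1.6.2 with the reverse-strand setting, over the exons of each gene of the UCSC annotation. From these counts, CPM after TMM normalization were computed here, and genes were tested with edgeR 4.0.16 (R 4.3.3), a quasi-likelihood fit over all mice, after filterByExpr (minimum count 10, total 15). SAH against control used 2 groups, and the other comparisons 3. P-values were adjusted by Benjamini-Hochberg over all genes tested, with calls under 0.10. The replicates are separate mice. DESeq2 1.42.0 and other settings were alternatives. Steps were tested on simulated data. Exon GC content was read from NCBIM37, on which 0 exons of the count tables ran past a chromosome end.

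The genes, roles and lists were chosen with earlier results of these data known. Values in every mouse are given for genes called in any comparison, the 3 largest rises and falls in SAH against control, and 9 core genes (Syn1, Syp, Syt1, Stx1a, Snap25, Vamp2, Unc13a, Slc17a7, Slc17a6), and the log2 fold change for all others. Other genes named in comparisons with 5 or fewer calls were chosen after their values were seen. Values of 1 other presynaptic gene are not reported here.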

Additional observations from a re-analysis of the deposited data

Results flagged for a closer look

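For each presynaptic gene, the SAH and the control mice were screened for 1 mouse far from the rest of its group by Dixon's criterion, in 88 groups of values. It marked 3, fewer than the 1 in 20 that chance gives. Syp, synaptophysin, was at 1479.8 CPM in SAH mouse 4, with the other 3 SAH mice between 1569.8 and 1583 CPM. Slc17a7, VGLUT1, was at 1492 CPM in Sham mouse 6, with the other 5 control mice between 1426 and 1447 CPM. Rims1, a RIM scaffold gene, was at 156 CPM in Naive mouse 9, with the other 5 control mice between 149 and 151 CPM.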

How the results depend on the processing

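No paired analysis was made, because each library came from a separate mouse that belonged to 1 group. The call of Syn1 in SAH against control held in 17 of 19 other settings, that of Cplx1 in 14, Dnm1 in 10 and Vamp2 in 6, all with the same direction. Of the 4 presynaptic genes called lower in SAH against control, 1 was called at an adjusted p under 0.05, 1 with GC content offsets and 0 without the 3 mice rich in choroid plexus markers. With 1 mouse left out, 0 to 6 were called lower and 0 to 2 higher. Against Sham (0 lower), DESeq2 called 1. Against Naive (1 lower), DESeq2 called 2, and 0 were called at an adjusted p under 0.05, with DESeq2 size factors, library size alone, at least 10 counts in every mouse, only the compared groups or GC content offsets, and 0 to 2 with 1 mouse left out. Of the other presynaptic genes (0 lower), DESeq2 called 2 against control and 2 against Naive, and with 1 mouse left out 0 to 3 and 0 to 2 were called. The median log2 fold change of the 44 genes in SAH against control, -0.05, ran from -0.07 without SAH mouse 2 to -0.02 without SAH mouse 3, and in SAH against Sham it was 0.0087 without Sham mouse 5, above 0. The cause of these changes was not tested, beyond the fewer mice in some fits.

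Some genes, none of them called, changed sign in SAH against control, most from values near 0, but Rims3 from -0.15, Syt7 from 0.12, Sv2c from 0.12, Vamp1 from 0.08 and Doc2a from -0.08. Without the 3 mice rich in choroid plexus markers, the log2 fold change was -0.022 for Sv2c, -0.034 for Syt1, -0.050 for Syt2, -0.0076 for Syt7, 0.061 for Doc2a, 0.064 for Doc2b, -0.00091 for Snap25, -0.017 for Vamp1, -0.052 for Nsf, -0.028 for Napa and 0.053 for Rims3. Cplx2 was 0.0021 with library size alone and 0.012 with GC content offsets. Rims2 was 0.0027 with library size alone, 1.7e-05 with at least 10 counts in every mouse and 0.00094 with GC content offsets. Pclo was 0.0020 with DESeq2, 0.0019 with its size factors, 0.0052 with library size alone, 0.0021 with at least 10 counts in every mouse, 0.00012 with Sham and Naive averaged and 0.00073 with GC content offsets. With 1 mouse left out, the values ran from -0.00013 to 0.016 for Slc17a7, -0.020 to 0.042 for Rab3c, -0.0051 to 0.069 for Syt1, -0.045 to 0.0052 for Syt4, -0.080 to 0.043 for Doc2b, -0.0067 to 0.026 for Snap25, -0.027 to 0.0096 for Cplx2, -0.014 to 0.035 for Nsf, -0.023 to 0.017 for Rims2 and -0.033 to 0.041 for Pclo.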
